A study of Mus musculus with 2 samples.

Results

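The genes described here are 35 genes of muscle protein breakdown in differentiated C2C12 cells: atrophy-linked ubiquitin ligases, FoxO and related transcription factors, autophagy and lysosome genes, and 1 calpain. They were listed by name, and each was read through a probe set annotated to that gene alone, the one with the highest mean of the 2 arrays where a gene had several. All 35 were found among the 19938 named genes of the array, and all 35 lay above the detection floor on both arrays. The floor was a log2 signal of 5.11, the 95th percentile over 1210 probe sets for olfactory or vomeronasal receptors, taken as silent in muscle cells. With the olfactory and vomeronasal receptor genes left out, 13554 genes passed it on at least 1 array and are called measured.

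A pair of cultures was compared, written Ad-caERα and Ad-DsRed after their adenoviral vectors. The first delivers an estrogen receptor α that is active without hormone, and the second, the control, a red fluorescent protein, DsRed. The labels do not give the receptor's species, its sequence or the promoter that drives it. C2C12 cells are mouse myoblasts that stop dividing and fuse into myotubes when serum is lowered. In both groups the cells had 7 days in medium with 2% horse serum and were then exposed for 48 h to the vector (multiplicity of infection 30), so the control culture was infected too. Each group has 1 array. No value below therefore has a replicate or an error, no test between the vectors could be made, and differences are described by their size alone. They are Ad-caERα minus Ad-DsRed on the log2 scale of the deposited RMA signals.

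Skeletal muscle breaks down its proteins mainly through the ubiquitin-proteasome system and through autophagy. FoxO transcription factors, which are held out of the nucleus by Akt when insulin or IGF-1 signalling is active, can switch on genes of both routes in muscle, among them the ligases atrogin-1 and MuRF1 and several autophagy genes. In autophagy a double membrane forms around cargo, is coated with lipid-linked proteins of the Atg8 family, and fuses with the lysosome, where cathepsins degrade the content.

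Esr1 and markers of cell identity were read first. Esr1, which encodes estrogen receptor α, was at 8.44 in Ad-caERα and 7.38 in Ad-DsRed (2.08-fold). The species and sequence of the delivered receptor are not given. Signal from the vector and from the cells' own Esr1 therefore cannot be told apart. All 14 skeletal myotube markers lay above the floor, and the summed linear signal of the list was 0.962 times as high in Ad-caERα as in Ad-DsRed. Of 8 leukocyte and macrophage markers, 6 lay below the floor on both arrays, Ptprc, Csf1r and Adgre1 among them. So did 3 of 5 adipocyte and 3 of 4 endothelial markers. The fibroblast list was not silent, with 5 of 6 markers above the floor. Among them Dcn was at 13.18 in Ad-caERα and 13.11 in Ad-DsRed. As yardsticks, the difference had an SD of 0.27 over all measured genes and of 0.22 over the 1210 receptor probe sets. Between distinct probe sets that read 1 gene the SD was 0.13 (754 genes had over 1). All of these come from the same 2 arrays and do not measure the spread between cultures.

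Most autophagy genes were slightly higher and most atrophy ligases slightly lower in Ad-caERα, with every difference under 2-fold. By the rule of at least 2-fold, 0 of the 35 genes were higher and 0 lower, where 0.59% of all measured genes were higher and 0.0959% lower. At 1.5-fold 1 gene was higher, Bnip3 (1.82% of measured genes), and 1 lower, Fbxo40 (0.885%). At 1.2-fold 5 genes (14.3%) were higher against a background of 11.1%, namely Bnip3, Map1lc3a, Fbxo32, Ulk1 and Foxo3. On the lower side, 2 genes (5.71%), Fbxo40 and Trim55, reached 1.2-fold against a background of 10.4%. The share of higher genes at 1.2-fold was near the background and that of lower genes was below it, both resting on a few genes.

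The sign of the differences leaned upward. Of the 35 genes, 24 (68.6%) were above 0, against 50.2% of all measured genes, 11 were below 0 (48.8% of all), and their median was 0.078 against 0.0017. The share above 0 also differed with brightness. At a mean log2 signal of 7 or more, a limit chosen after seeing the data, 24 of 33 members and 56.3% of measured genes lay above 0, with medians of 0.091 and 0.031. After a loess correction for the trend with brightness, 21 of the 35 were above 0. Most of the differences were small, 28 of the 35 lying closer to 0 than the SD over all measured genes.

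**Figure D1:**
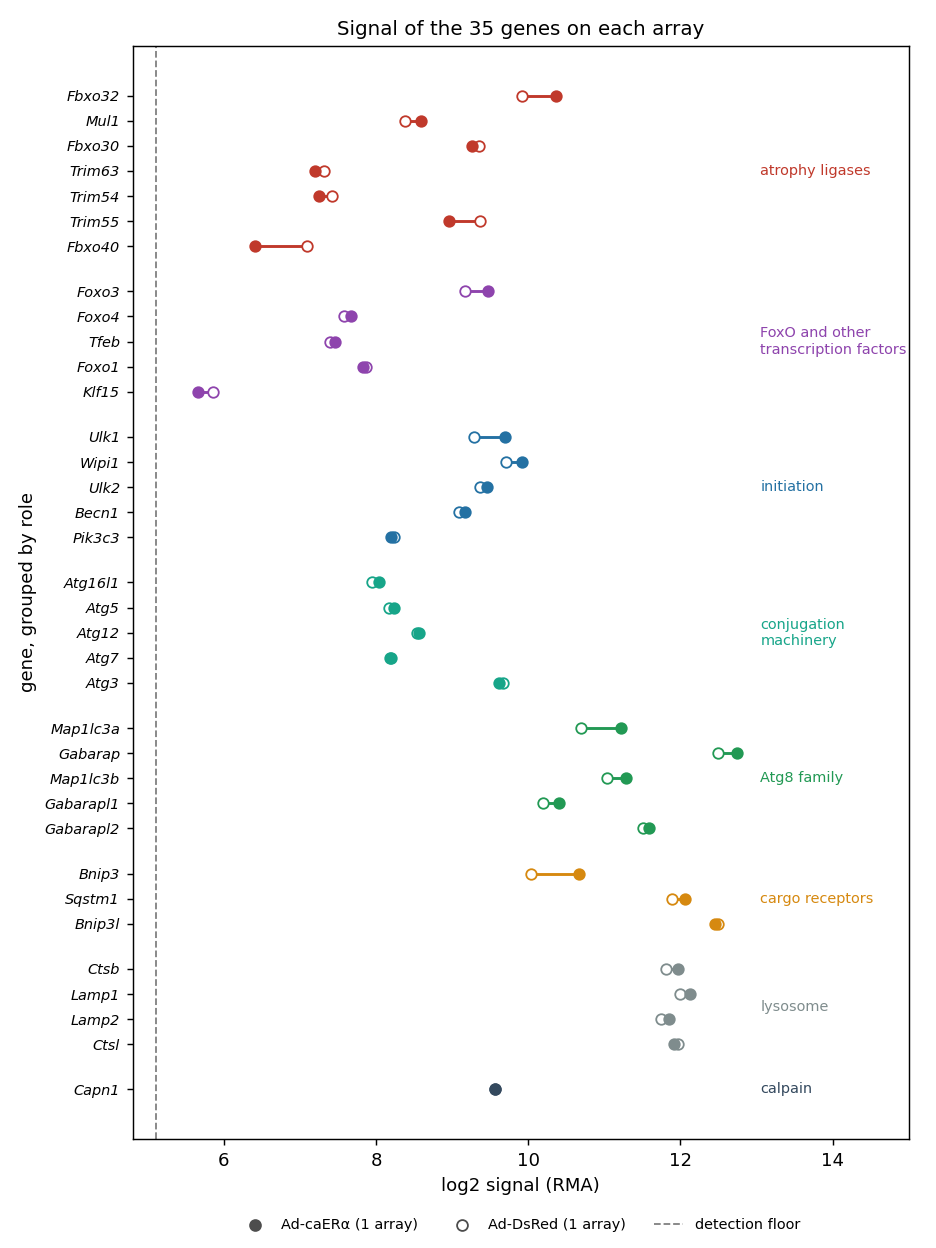
Log2 signal (horizontal axis) of each of the 35 genes in Ad-caERα (filled circles) and Ad-DsRed (open circles), 1 array each, grouped by role, with the detection floor of 5.11 dashed. The widest gaps are those of Fbxo40, with Ad-caERα lower, and Bnip3, with Ad-caERα higher; all points lie right of the floor.

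The atrophy ligases went both ways. Of these 7 genes 2 were above 0 (28.6%, against 50.2% of all measured genes) and 5 below, with a median difference of -0.13. Fbxo32 encodes atrogin-1 (MAFbx), a muscle F-box protein that is induced in wasting. Its signal was 10.36 in Ad-caERα and 9.92 in Ad-DsRed, a 1.36-fold difference (0.44). Among all measured genes 3.47% had a difference that high or higher. Mul1, a ligase of the mitochondrial outer membrane, was also higher, at 8.59 in Ad-caERα against 8.38 in Ad-DsRed (0.20).

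All 3 muscle RING finger genes were below 0. Trim55 (MuRF2), which binds titin and microtubules, was at 8.95 in Ad-caERα and 9.37 in Ad-DsRed, 1.33-fold lower. Of measured genes 3.24% had a difference that low or lower, and 7.33% were as far from 0 in either direction. Trim63 (MuRF1), the ligase usually paired with atrogin-1 as a marker of atrophy, was at 7.19 in Ad-caERα and 7.32 in Ad-DsRed (-0.13). Trim54 (MuRF3), which associates with microtubules, was at 7.25 in Ad-caERα and 7.42 in Ad-DsRed (-0.17). Both of the last 2 differences are close in size to the SD between probe sets of the same gene, and about as far from 0 as many other genes: 52.9% of measured genes were as far from 0 as Trim63 and 41.7% as far as Trim54. The differences of atrogin-1 and MuRF1, the pair usually read together, were of opposite sign, that of MuRF1 small.

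The lowest of the 35 genes was Fbxo40, a muscle F-box gene whose product targets the insulin receptor substrate IRS1 for degradation. It was at 6.41 in Ad-caERα and 7.09 in Ad-DsRed, 1.61-fold lower (-0.68). Differences that low or lower were found in 0.391% of measured genes. In either direction, 1.69% of measured genes were as far from 0. Dim genes spread more, and among the 1777 genes with a mean log2 signal between 6 and 7 that share was 2.70%. Fbxo30 (MUSA1), an F-box ligase that in mouse muscle is held down by BMP signalling, was at 9.26 in Ad-caERα and 9.35 in Ad-DsRed (-0.094). The 3 F-box genes of the list thus spread from 1.36-fold higher to 1.61-fold lower.

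Markers of the myotube state were mostly lower in Ad-caERα too, as Fbxo40 and the MuRF genes were. Of the 14 skeletal myotube markers 12 were below 0, against 48.8% of all measured genes, with a median of -0.13. The lowest were the fusion gene Mymx (-0.79) and titin, Ttn (-0.42). Of 6 markers of undifferentiated myoblasts 3 were above 0 and 3 below, with a median of 0.0048. Among these Myf5, a myogenic factor, was at 10.17 in Ad-caERα and 9.46 in Ad-DsRed (0.71), and the proliferation marker Mki67 at 10.54 in Ad-caERα and 10.97 in Ad-DsRed (-0.44). The summed linear signal of the myoblast list was 0.906 times as high in Ad-caERα as in Ad-DsRed. The part of what these markers show in the lower signal of these muscle-specific ligases was not tested. In bulk RNA, fewer myotubes in a culture and less RNA per myotube cannot be told apart.

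The promoter windows of Fbxo40 are shown because it was the lowest of the list. RefSeq (GRCm38.p6) gives it 2 starts on the minus strand, and each window runs from 250 bases before to 50 bases after the start. Capitals mark matches, on either strand, to AGGTCA, the half-site of the estrogen response element. The first window is chr16:36979087-36979386 and the second chr16:36990418-36990717.
Fbxo40 start 1: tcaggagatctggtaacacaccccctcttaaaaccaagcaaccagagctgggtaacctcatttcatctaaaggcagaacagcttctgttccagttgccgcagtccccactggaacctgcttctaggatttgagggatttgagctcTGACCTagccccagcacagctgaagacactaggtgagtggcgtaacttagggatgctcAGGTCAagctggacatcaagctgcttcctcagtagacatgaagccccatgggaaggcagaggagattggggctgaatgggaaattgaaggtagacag
Fbxo40 start 2: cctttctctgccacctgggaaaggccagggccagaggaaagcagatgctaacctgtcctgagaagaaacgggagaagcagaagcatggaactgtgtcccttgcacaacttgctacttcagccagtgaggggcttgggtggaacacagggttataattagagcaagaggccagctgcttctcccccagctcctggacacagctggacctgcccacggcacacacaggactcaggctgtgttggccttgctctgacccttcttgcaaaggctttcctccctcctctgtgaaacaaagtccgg
The first window holds 2 matches and the second holds none. Over all 32851 promoter windows of the same length, 16.3% held this half-site, and among the 29 windows of the 25 listed genes with an entry, 3 (10.3%) did, those of Fbxo40, Gabarapl2 and Ulk2. The full element, GGTCA and TGACC set 3 bases apart, was in 0 of the 29 and in 0.0700% of all windows. A match shows only that the letters are present and a missing match only that they are not in this window.

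Among the transcription factors Foxo3 differed most. Foxo3, the FoxO factor best known for driving atrogin-1 and autophagy genes in mouse muscle, was at 9.47 in Ad-caERα and 9.17 in Ad-DsRed (1.23-fold, 0.30). Differences of that size or above occurred in 8.76% of measured genes. Foxo1, which also acts on atrophy genes, was at 7.83 in Ad-caERα and 7.87 in Ad-DsRed (-0.040). Foxo4 was at 7.67 in Ad-caERα and 7.58 in Ad-DsRed (0.091). Both of these differences were smaller than the SD between probe sets of the same gene. FoxO proteins are controlled mainly by phosphorylation and location, which RNA does not show. The sequence GTAAACA, which FoxO proteins bind, was found on either strand in 1 of the 29 windows of listed genes, that of Trim63, and in 3.65% of all windows.

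Klf15, a glucocorticoid-induced factor that acts with the glucocorticoid receptor on ligase genes, was at 5.66 in Ad-caERα and 5.85 in Ad-DsRed (-0.19). It was the only listed gene below the stricter floor of 6.16, the 99th percentile over the receptor probe sets. Tfeb, the factor that activates lysosome and autophagy genes, was at 7.46 in Ad-caERα and 7.40 in Ad-DsRed (0.059). The CLEAR element it binds, searched as CACGTG with GT before it and AC after it, was in 0 of the 29 windows and in 0.326% of all windows.

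**Figure D2:**
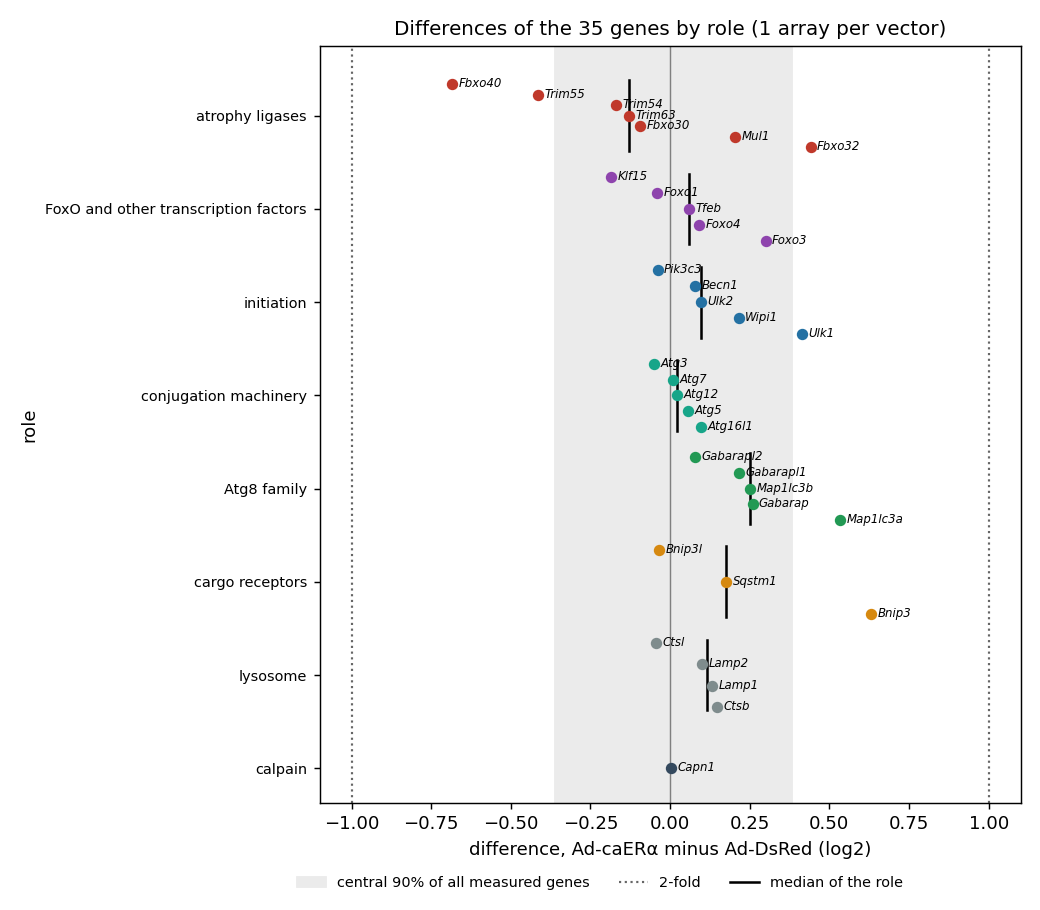
Difference, Ad-caERα minus Ad-DsRed on the log2 scale (horizontal axis), of each gene by role, from 1 array per vector, with role medians as black bars, the central 90% of all measured genes shaded (-0.36 to 0.38) and 2-fold dotted. The 5 Atg8 family genes lie right of 0 (4 of 5 if probe sets are averaged), while 5 of the 7 ligases lie left of it.

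The autophagy machinery was higher in most of its members. Taking initiation, conjugation, the Atg8 family and cargo receptors together, 15 of 18 genes were above 0 and 3 below. That is 83.3% above 0, against 50.2% of all measured genes. The median was 0.097, and after the loess correction 13 were above 0. At 1.2-fold 3 of these 18 genes were higher (Ulk1, Map1lc3a and Bnip3; 16.7%, against 11.1% of all measured genes) and 0 lower (10.4% of all). The share of higher genes by that size was near the background.

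In the initiation step the largest difference was that of Ulk1. Ulk1, the kinase that starts autophagosome formation and receives input from mTORC1 and AMPK, was at 9.70 in Ad-caERα and 9.29 in Ad-DsRed (1.33-fold, 0.41). Of all measured genes 4.14% were that high or higher. Its relative Ulk2 was at 9.46 in Ad-caERα and 9.36 in Ad-DsRed (0.097). Wipi1, which reads the phosphoinositide made by the class III lipid kinase, was at 9.92 in Ad-caERα and 9.70 in Ad-DsRed (0.22). That kinase, Pik3c3, was at 8.20 in Ad-caERα and 8.23 in Ad-DsRed (-0.039), and its partner beclin 1, Becn1, at 9.16 in Ad-caERα and 9.09 in Ad-DsRed (0.078). Ulk1 and Wipi1 thus had the larger differences of this step and the lipid kinase and its partner the smaller ones.

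The conjugation genes, which attach Atg8 proteins to lipid, were nearly level between the arrays. The 5 genes had a median of 0.023 and ran from -0.051 to 0.097, with 4 above 0, or 2 after the loess correction. Atg7, the E1-like enzyme, was at 8.20 in Ad-caERα and 8.19 in Ad-DsRed. Atg3, the E2-like enzyme, was at 9.61 in Ad-caERα and 9.67 in Ad-DsRed. The enzymes that activate and transfer Atg8 proteins thus had differences of only 0.0099 and -0.051. Atg5 was at 8.23 in Ad-caERα and 8.17 in Ad-DsRed, and Atg12, to which its protein is joined, at 8.56 in Ad-caERα and 8.54 in Ad-DsRed. Atg16l1, which places that conjugate on the membrane, was at 8.04 in Ad-caERα and 7.94 in Ad-DsRed. Each of these 5 differences was smaller than the SD between probe sets of the same gene.

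All 5 Atg8 family genes, which encode the proteins that coat the autophagosome, were above 0, against 50.2% of all measured genes. Their median was 0.25, and 4 of 5 were above 0 if the dim second probe set of Gabarapl2 is averaged in. Map1lc3a (LC3A) was at 11.22 in Ad-caERα and 10.69 in Ad-DsRed, 1.45-fold higher (0.53). In 2.21% of measured genes the difference was that high or higher. Map1lc3b, which encodes LC3B, the usual marker of autophagosomes, was at 11.28 in Ad-caERα and 11.03 in Ad-DsRed (1.19-fold, 0.25). A second probe set annotated to Map1lc3b held identical values on both arrays and was counted once.

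In the GABARAP branch all 3 differences were smaller than that of Map1lc3a, and that of Gabarap was close to that of Map1lc3b. Gabarap was at 12.75 in Ad-caERα and 12.49 in Ad-DsRed (0.26, just under 1.2-fold). Among all measured genes 22.2% were as far from 0 as Gabarap. Bright genes spread less, and in the group of 164 genes with a mean log2 signal between 12 and 13 that share was 5.49%. Gabarapl1, a known FoxO target in mouse muscle, was at 10.41 in Ad-caERα and 10.19 in Ad-DsRed (0.22). Gabarapl2 was at 11.59 in Ad-caERα and 11.51 in Ad-DsRed (0.078), and its second probe set, at 4.50 in Ad-caERα and 4.96 in Ad-DsRed, lay below the floor on both arrays. The family therefore shared a sign but spread from 1.06-fold to 1.45-fold.

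Of the cargo receptors Bnip3 was the highest of all 35 genes and its relative Bnip3l was level. Bnip3, a receptor on the mitochondrial outer membrane that hands mitochondria to autophagy and is induced by low oxygen and by FoxO3, was at 10.67 in Ad-caERα and 10.04 in Ad-DsRed, 1.55-fold higher (0.63). A second probe set read 9.88 in Ad-caERα and 9.36 in Ad-DsRed (0.52). Both probe sets are annotated to the same transcripts and could read a near-identical copy of the gene, so they are not independent measurements; the same holds for those of Bnip3l. Of measured genes 1.55% were that high or higher on the first probe set. Bnip3l (NIX), which does the same work in maturing red cells, was at 12.46 in Ad-caERα and 12.49 in Ad-DsRed (-0.035), and its second probe set gave 0.010. Sqstm1 (p62), which links ubiquitin-tagged cargo to LC3, was at 12.06 in Ad-caERα and 11.88 in Ad-DsRed (0.18).

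**Figure D3:**
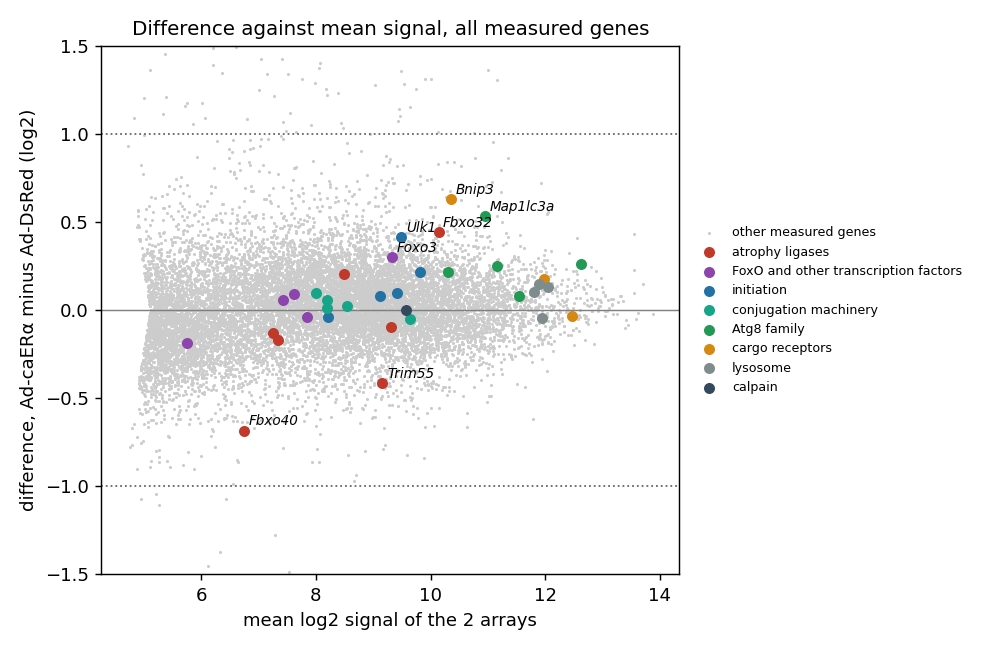
Difference, Ad-caERα minus Ad-DsRed on the log2 scale (vertical axis), against the mean log2 signal of the 2 arrays, for all measured genes (grey) and the 35 genes (coloured by role); 34 measured genes lie beyond the axis limits. The 7 genes at least 1.2-fold apart are named, and Bnip3 and Fbxo40 are farthest from 0 among the 35.

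The promoter window of Bnip3 is shown as that of the highest gene of the list. It lies at chr7:138909457-138909756 on the minus strand (RefSeq, GRCm38.p6). Capitals mark ACGTG, the core of the hypoxia response element, on either strand. Here it was matched on both strands within a single CACGTG, which is also the E-box at the centre of the CLEAR element.
Bnip3: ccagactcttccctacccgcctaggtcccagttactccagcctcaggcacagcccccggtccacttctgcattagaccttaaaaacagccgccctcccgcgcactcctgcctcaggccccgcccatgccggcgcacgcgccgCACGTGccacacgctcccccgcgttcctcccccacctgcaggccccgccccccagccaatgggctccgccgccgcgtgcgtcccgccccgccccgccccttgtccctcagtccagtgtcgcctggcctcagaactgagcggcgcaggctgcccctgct
This E-box begins at position -108 from the start, in a window with 71.7% G and C and 27 CpG. The core ACGTG was in 10 of the 29 windows of listed genes (34.5%) and in 19.6% of all windows, and CACGTG in 8 of the 29 (27.6%) and in 7.15% of all windows. Besides Bnip3 the genes with the E-box were Atg3, Atg5, Atg7, Ctsl, Klf15, Lamp1 and Mul1, whose differences ran from -0.19 to 0.20. The E-box was thus present in genes on both sides of 0. Map1lc3a and Trim55 had no entry in the table.

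Lysosome genes differed by little. Lamp1, a major protein of the lysosomal membrane, was at 12.12 in Ad-caERα and 11.99 in Ad-DsRed (0.13), and Lamp2, needed for fusion with the autophagosome, at 11.85 in Ad-caERα and 11.75 in Ad-DsRed (0.10). The protease cathepsin B, Ctsb, was at 11.96 in Ad-caERα and 11.82 in Ad-DsRed (0.15). Cathepsin L, Ctsl, whose RNA is raised in wasting muscle, was at 11.92 in Ad-caERα and 11.96 in Ad-DsRed (-0.044). The 4 lysosomal genes thus differed by 0.15 or less between the arrays. Capn1, the calcium-dependent protease calpain-1, was at 9.57 on both arrays (0.0020), the smallest difference of the 35.

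Other genes of the same routes were read beside them. Of 24 other autophagy genes 20 were above 0 (83.3%, against 50.2% of all measured genes), or 17 after the loess correction, with a median of 0.11. At 1.2-fold 4 were higher (16.7%, near the 11.1% of all measured genes) and 0 lower (10.4% of all). The highest were the LC3-processing protease Atg4b (0.46), at 8.10 in Ad-caERα and 7.65 in Ad-DsRed, and the Ulk1 complex subunit Atg13 (0.37), and the lowest Atg10 (-0.069) and Rb1cc1 (-0.066). Of 11 other selective autophagy and mitophagy genes 8 were above 0 (72.7%, against 50.2% of all measured genes), with a median of 0.11. Pink1, the kinase that marks damaged mitochondria, was highest at 9.63 in Ad-caERα and 9.05 in Ad-DsRed (0.58), followed by Fkbp8 (0.32), a mitophagy receptor, and Wdfy3 (-0.21) and Tax1bp1 (-0.032) were lowest. Of these 11 genes 2 were at least 1.2-fold higher (18.2%, against 11.1% of all measured genes) and 0 lower (10.4% of all).

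Among 28 other lysosome genes 23 were above 0 (82.1%, against 50.2% of all measured genes), or 20 after the loess correction. Their median was 0.12. Ctsh, the aminopeptidase cathepsin H, was the single gene of these lists past 2-fold, at 7.35 in Ad-caERα and 5.86 in Ad-DsRed (2.82-fold), and the sialidase Neu1 followed (0.52). Ctsc (-0.11) and Npc1 (-0.089) were lowest. Cd68, a lysosomal protein that macrophages also make, was at 6.62 in Ad-caERα and 6.38 in Ad-DsRed, and Cd14, a macrophage surface receptor, at 6.82 in Ad-caERα and 6.53 in Ad-DsRed. Both macrophage markers above the floor were thus higher in Ad-caERα, and the other 6 lay below it. The summed linear signal of the 8 markers was 325 in Ad-caERα and 296 in Ad-DsRed. Without the floor, 4 of the 8 were above 0 and 4 below, with a median of 0.020. Their part in the higher signal of lysosome genes was not tested.

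In 16 other muscle ubiquitin and calpain genes the median was 0.019, with 9 above 0 (-0.013 and 7 above 0 after the loess correction), from the muscle ligase subunit Asb2 (0.37) and the ligase Trim32 (0.25) to Fbxw7 (-0.23) and Mdm2 (-0.21). Regulators and targets of the FoxO pathway leaned the other way, with 17 of 27 below 0, against 48.8% of all measured genes. Their median was -0.057, and 21 were below 0 after the loess correction. Deptor, an mTOR inhibitor, was lowest at 9.49 in Ad-caERα and 10.05 in Ad-DsRed (1.47-fold lower), followed by Prkaa2 (-0.30), an AMPK subunit. Pdk4, a FoxO target that blocks pyruvate oxidation, was highest (0.45), followed by Ddit4 (0.33), an mTORC1 inhibitor. The glucocorticoid and myostatin genes had a median of -0.019 over 11 measured genes. They ran from Tsc22d3 (0.38) and Mt1 (0.14) to Acvr2b (-0.28) and Smad3 (-0.18). Myostatin itself, Mstn, is not among these 11, as it lay below the floor on both arrays (3.79 in Ad-caERα and 3.63 in Ad-DsRed).

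Genes known to be induced by low oxygen were read because Bnip3 is one of them. Of 21 such genes other than Bnip3, 19 (90.5%) were above 0, against 50.2% of all measured genes, with a median of 0.18. At 1.2-fold 7 were higher (33.3%, against 11.1% of all measured genes) and 0 lower (10.4% of all). Pdk1, which blocks pyruvate oxidation, was at 9.10 in Ad-caERα and 8.42 in Ad-DsRed (1.61-fold), and Car9, a carbonic anhydrase, at 6.11 in Ad-caERα and 5.46 in Ad-DsRed (1.57-fold). Kdm3a (-0.11) and Egln3 (-0.033) were lowest. The count above 0 was the same after the loess correction. What these genes and Bnip3 share was not tested.

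**Figure D4:**
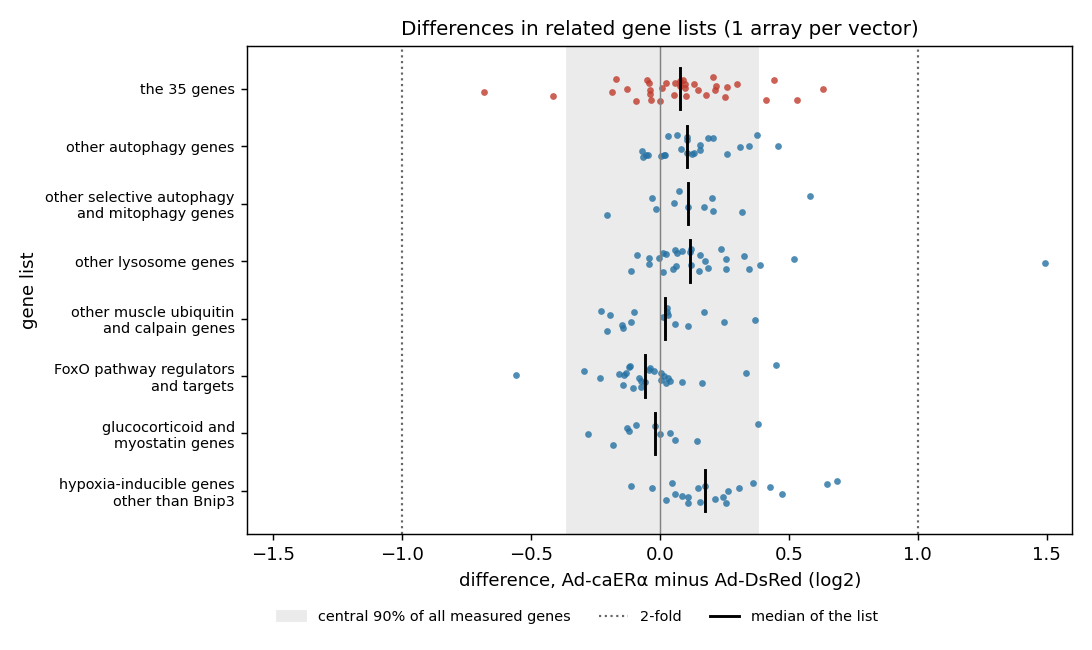
Difference, Ad-caERα minus Ad-DsRed on the log2 scale (horizontal axis), of each measured gene in the 35-gene list (red) and 7 related lists (blue), with medians as black bars, the central 90% of all measured genes shaded and 2-fold dotted. The hypoxia-inducible list has the highest median (0.18), the FoxO pathway list the lowest (-0.057), and Ctsh is the point beyond 2-fold.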

How the data were processed

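Per the submitters' processing notes, the deposited log2 signals come from RMA in Affymetrix Expression Console, a method with background correction, quantile normalization between arrays and a summary per probe set. For versions and probe filters, nothing is given in the sources used here. Weak signals are compressed by RMA, and a change in total mRNA would be hidden by the quantile step. The table held 35556 probe sets, with medians of 6.02 (Ad-caERα) and 6.05 (Ad-DsRed). GEO's platform annotation named 1 gene for 21789 of them, several for 1621 and none for 12146; probe sets naming several genes were left out. All 35 gene IDs matched RefSeq with 0 symbols changed.

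The members and gene lists were chosen with earlier results of these data known. All 35 members were named, and in each other list the 2 highest and 2 lowest measured genes and any past 2-fold. Cd68, Cd14, Csf1r, Dcn and other markers, Mstn, Myf5, Mki67, Mymx and Ttn were named after their values were seen. Promoters were shown for the 2 highest and 2 lowest members, where present. Any window of these genes on 1 further chromosome was left out of those shown but kept in the motif counts. Alternatives covered the floor, scaling, probe set rule and threshold. The 2-fold call and the loess correction were tested beforehand on simulated data with planted changes of 2 log2 units. Sign counts and smaller fold thresholds were not tested in that way. With 2 arrays, 1 per group, precision is limited by their number and no test was made. Python 3.11.15, numpy 2.4.6, pandas 2.3.3, statsmodels 0.14.6 and matplotlib 3.10.9 were used.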

Additional observations from a re-analysis of the deposited data

How the results depend on the processing

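No paired analysis was possible because there is a single array per vector; leaving out a replicate was likewise not possible. The counts of 0 genes past 2-fold in either direction stayed at 0 under the other floors, raised values, centring, loess correction and other probe set rules, and moved only with the threshold, to 1 higher and 1 lower at 1.5-fold and to 5 higher and 2 lower at 1.2-fold. The 1 gene at least 1.5-fold higher, Bnip3, became 0 when probe sets were averaged or the lowest was taken, since its second probe set gave 0.52. The medians of the members, roles and other lists moved by less than 0.13, the SD between probe sets of a gene, under every alternative run, though those of the conjugation genes (-0.014) and of the other muscle ubiquitin and calpain genes (-0.013) changed sign after loess correction, the second also as a mean (-0.0052). Of 278 recomputed member differences, 273 kept their sign. The 5 that did not were Atg7, Atg12 and Capn1 after loess correction (-0.032, -0.014 and -0.021), Bnip3l with its other probe set (0.010), and Gabarapl2 when its probe set below the floor was averaged in (-0.19). With that averaging 4 of 5 Atg8 family genes were above 0. Using probe sets of several genes could not change a member, as none had such a probe set. Raising values to the floor could not either, as all lay above it. Other floors left every kept value as it was, and the other probe set rules could change only Bnip3, Bnip3l and Gabarapl2. Most of the 278 values were thus fixed in advance, and centring moved each member by only 0.0017. The spread between cultures is unknown, so no difference here can be told from it.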
